A study of Silurus meridionalis with 18 samples.

Results

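The period and cryptochrome genes of the southern catfish, Silurus meridionalis, were described across 18 adult tissues. Gene models were taken when their deposited protein name began with "period circadian", "period homolog" or "period 1" to "period 4", or contained "cryptochrome". The rule also named C0J45_16883 by its locus tag. It took 8 of the 25390 models in the table: 4 period and 4 cryptochrome genes. RNA selected for its poly(A) tail was sequenced from 1 library per tissue: Brain, Telecephlon (as the label spells it), Olfactory_bulb, Retina, Mandibular_barbel, Maxillary_barbel, Skin, Gill, Intestine, Kidney, Head_kidney, Spleen, Heart, Muscle, Liver, Pancreas, Ovary and Testis. The fish came from a benthic, that is bottom-dwelling, setting, and no treatment or mutant is named. The labels give no time of day, lighting, sex, batch or number of fish. With 1 library per tissue there is no spread between replicates, so no difference below was tested and no 2 neighbouring levels in any order can be called different. Levels are FPKM (fragments per kilobase of gene model, scaled to library depth) as the authors deposited them. Differences are on the log2(FPKM + 1) scale, which understates the change of genes with low values.

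Period and cryptochrome proteins form the negative arm of the circadian clock. In vertebrates, the transcription factors CLOCK and BMAL switch on period and cryptochrome genes, and the PER and CRY proteins made from them enter the nucleus and hold CLOCK and BMAL back, so that the transcripts rise and fall over the day. In zebrafish, clocks of this kind run in most organs and can be set by light falling on the organ itself, with per2 and cry1a among the light-induced genes. Zebrafish also carry cryptochromes that do not repress CLOCK and BMAL.

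The depth of the libraries fell into 3 ranges, estimated from the most frequent low value of FPKM times coding length, read as 1 fragment. It was 48300000 to 51000000 fragments in 10 libraries, 20200000 to 22600000 in 6 (both barbels, Retina, Telecephlon, Olfactory_bulb and Intestine), and 9540000 in Muscle and 6330000 in Skin. Most tissue markers were highest in their labelled tissue. In Testis the sperm and meiotic markers were low (sycp3 had 0.499 FPKM, against 6.05 in Kidney). Skin held 2013 FPKM of the muscle creatine kinase ckma. Its keratin markers were higher in Maxillary_barbel: summed krt4 had 2788 FPKM in Skin and 26443 in Maxillary_barbel, and krt92 had 3039 and 6992. In bulk tissue, fewer cells of a type and less RNA per cell cannot be told apart.

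As the deposited annotation lists them, the 4 period models all carry a PAS domain and the period C-terminal domain. The 4 cryptochrome models carry the FAD-binding and photolyase N-terminal domains. Cryptochrome-1 (C0J45_12186) also lists a dihydrofolate reductase domain, which no other cryptochrome model lists. Whether that model joins parts of different genes was not tested. The gene for period circadian protein homolog 3, per3 below (C0J45_16883), lies at chr19:1808316-1823699 on the minus strand with 22 coding exons. Both genes named period circadian protein homolog 2 lie on chromosome 20, one (C0J45_17793) at chr20:10896064-10928678 with 23 coding exons and the other (C0J45_18054) at chr20:19039713-19049289 with 22. The gene for homolog 1, per1 (C0J45_06248), lies at chr6:16411678-16425311 with 18 coding exons, and these last 3 are on the plus strand. Among the cryptochromes, cryptochrome-1 (C0J45_12186) lies at chr13:10651282-10659932 on the plus strand. The minus strand holds cryptochrome-1 isoform 2 (C0J45_15583) at chr17:13784497-13802305, cryptochrome 1a (C0J45_16180) at chr18:7051587-7064913 and cryptochrome-2 (C0J45_05351) at chr5:23411952-23426325. The build of these coordinates is not given in the sources used here, and no other gene model overlaps any of the 8. The models of per3, of both per2 genes and of cryptochrome-1 isoform 2 are marked as partial. Whether their FPKM rests on complete transcripts is not stated. Levels compared between models, with the family sums and shares below, carry this limit.

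Gene neighbours were used to place the models among the named paralogs of RefSeq assembly ASM1480568v1, whose identifiers matched none of the deposited ones. Cryptochrome-1 shares its flanking genes (trabd, panx2, mlc1, mterf2) with RefSeq cry1b. Cryptochrome 1a lies beside braf and mrps33, as does RefSeq cry1a. Cryptochrome-1 isoform 2 lies among alas2, itpr3, gls2a and porcn, the neighbours of the RefSeq gene cry3a. The per1 model shares pcdh7b, arap2 and paqr9 with RefSeq per1b. C0J45_17793 shares hes6, itm2cb and gigyf2 with RefSeq per2. A model named transcription cofactor HES-6 also lies near C0J45_18054, to which no RefSeq period gene was matched by neighbours. A shared neighbourhood is a description of position and was not tested by sequence.

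The per3 model had the highest level of the period family in 14 of 18 libraries, and its own peak was in the barbels, the whisker-like feelers of catfish that carry taste buds. It had 159 FPKM in Mandibular_barbel and 132 in Maxillary_barbel. Olfactory_bulb followed with 74.1, Brain with 54.3 and Telecephlon with 49.7 FPKM. Both barbels therefore stood above all other libraries, and 3 of the 4 neural ones came next. Intestine had 28.9, Retina 23.7, Kidney 21, Gill 19.3 and Skin 12.6 FPKM. Liver had 9.01, Heart 8.10, Head_kidney 8.05, Spleen 5.43, Muscle 3.12, Testis 2.85 and Pancreas 2.38 FPKM. Ovary was lowest at 0.241 FPKM, so the difference between Mandibular_barbel and Ovary was 7.01. As a share of the summed period FPKM, per3 made up 79.8% in Mandibular_barbel, 77.2% in Olfactory_bulb, 73.2% in Brain and 72.8% in Maxillary_barbel.

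The 2 models named per2 were distributed differently from each other. C0J45_18054 followed the barbels, with 38.6 FPKM in Maxillary_barbel and 36.2 in Mandibular_barbel. Retina had 17.6, Telecephlon 10.4, Olfactory_bulb 9.39, Gill 6.50 and Brain 5.95 FPKM of it. Kidney, Heart, Head_kidney and Spleen lay between 3.82 and 3.25 FPKM. Skin, the covering tissue next to the barbels, had 2.45 FPKM. Intestine had 1.56, Testis 1.43, Muscle 1.19, Liver 0.862, Pancreas 0.280 and Ovary 0.126 FPKM.

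C0J45_17793 instead had its highest level in Liver, at 30.0 FPKM, where per3 had 9.01 and C0J45_18054 had 0.862. Retina had 11.7, Intestine 10.2, Olfactory_bulb 7.29 and Kidney 7.04 FPKM of it. Telecephlon had 5.30, Heart 4.92, Brain 3.91, Pancreas 3.51, Gill 1.85 and Testis 1.78 FPKM. Below 1 FPKM lay Skin at 0.666, Spleen at 0.527, Head_kidney at 0.182, Muscle at 0.142 and Ovary at 0.0470. It was also the one member on which the 2 barbels disagreed: it had 0.848 FPKM in Mandibular_barbel, about 71 estimated fragments, against 6.90 FPKM in Maxillary_barbel, about 648. That difference was -2.10, whereas the other 7 members differed between the barbels by at most 0.37 in size. Among the 9962 genes that reached 5 FPKM in a barbel, 62 (0.622%) were 4-fold or more apart. C0J45_17793 was singled out as the member with the largest gap, and of the barbels only Maxillary_barbel reached 5 FPKM. The share is therefore no measure of how rare its gap is. The myelin genes also differed between these libraries, with 77.0 FPKM of mbp in Mandibular_barbel and 247 in Maxillary_barbel, and their part in the per2 difference was not tested.

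The per1 gene had its highest level in the forebrain and a narrow range in most other libraries. Telecephlon had 28.3 FPKM, 1.42 above Brain, which had 9.98. Gill had 8.93, Kidney 6.03 and Olfactory_bulb 5.17 FPKM. Spleen, Heart, Head_kidney, Liver, Skin, Maxillary_barbel, Testis, Intestine, Retina and Mandibular_barbel lay between 4.88 and 3.24 FPKM. Muscle had 1.45, Pancreas 1.31 and Ovary 0.344 FPKM. Both barbels and Retina, the libraries in which other members peaked, were thus in the lower part of the order for per1. In Ovary and Testis per1 was the highest of the 4.

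**Figure D1:**
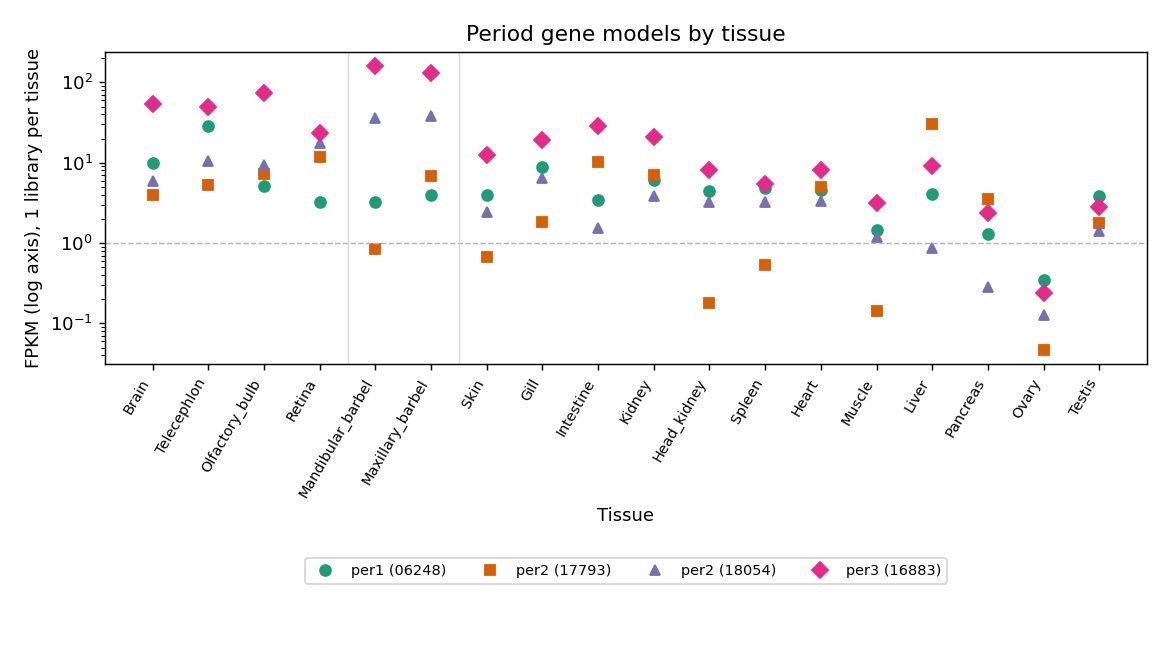
FPKM (log axis) of the 4 period gene models in 18 tissues, 1 library each, 1 point per model and library, with neural tissues at the left, then the barbels; the legend gives the end of each locus tag and the dashed line marks an FPKM of 1. The per3 points reach 159 and 132 in the barbels, per2 C0J45_17793 peaks in Liver at 30.0, and per1 peaks in Telecephlon at 28.3.

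Among the cryptochromes, cryptochrome-1 (C0J45_12186) had the steepest pattern, with 127 FPKM in Retina and 13.6 in Testis, the next library, a difference of 3.13. In the table as a whole, 1.5% of tested genes had Retina 5-fold or more above every other library on the FPKM + 1 scale, and this gene was among them. Maxillary_barbel had 10.03, Mandibular_barbel 9.88, Skin 9.43, Telecephlon 8.57, Gill 8.04 and Olfactory_bulb 6.57 FPKM. Brain had 2.44, Heart 2.03, Intestine 1.3, Ovary 1.07 and Muscle 1.0 FPKM. Kidney (0.899), Spleen (0.487), Head_kidney (0.458), Liver (0.304) and Pancreas (0.135 FPKM) fell below 1. Barbels, Skin and Gill were thus close to each other, and both kidney libraries, Spleen, Liver and Pancreas were at the bottom. It made up 59.2% of the summed cryptochrome FPKM in Testis, 49.2% in Retina and 45.9% in Skin.

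Cryptochrome-1 isoform 2 (C0J45_15583) was also highest in Retina, at 101 FPKM, 1.36 above Mandibular_barbel with 38.8. Telecephlon had 32.7, Olfactory_bulb 31.3, Maxillary_barbel 29.7, Intestine 18.1 and Brain 15.2 FPKM. These first 7 libraries were the 4 neural ones, both barbels and Intestine. Gill had 9.88, Liver 7.98, Heart 7.76, Kidney 6.8, Spleen 5.09, Testis 4.19 and Skin 3.95 FPKM. Head_kidney had 2.93, Pancreas 2.70, Ovary 1.31 and Muscle 0.902 FPKM.

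Cryptochrome 1a (C0J45_16180) shared the barbel peak of per3, with 47.5 FPKM in Maxillary_barbel and 39.9 in Mandibular_barbel, but Retina, with 7.75, was in the lower part of its order. Telecephlon and Olfactory_bulb had 14.8 FPKM each and Heart 12.1. Intestine, Gill, Head_kidney, Spleen, Brain, Ovary, Retina and Kidney lay between 9.52 and 7.41 FPKM. Skin had 4.22, Muscle 3.67, Testis 3.36, Liver 3.09 and Pancreas 1.57 FPKM. In Ovary it had 7.81 FPKM, where all 4 period genes together had 0.758.

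Cryptochrome-2 (C0J45_05351) was the most even of the 8 over the tissues. Retina had 22.5, Telecephlon 14.8, Liver 11.1 and Head_kidney 11.1 FPKM, and Testis was lowest at 1.79. Brain had 9.57, Intestine 8.92, Olfactory_bulb 7.34, Kidney 7.21, Ovary 6.44, Gill 6.31, Spleen 6.29 and Heart 5.84 FPKM. Mandibular_barbel had 5.31, Muscle 5.10, Maxillary_barbel 4.45, Pancreas 4.10 and Skin 2.94 FPKM. The barbels were in the lower part of this order, as for per1. The cryptochrome that was highest within its family changed with the tissue: cryptochrome 1a led in 6 libraries, cryptochrome-1 isoform 2 in 5, cryptochrome-2 in 4 (Head_kidney, Liver, Muscle and Pancreas) and cryptochrome-1 in 3.

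**Figure D2:**
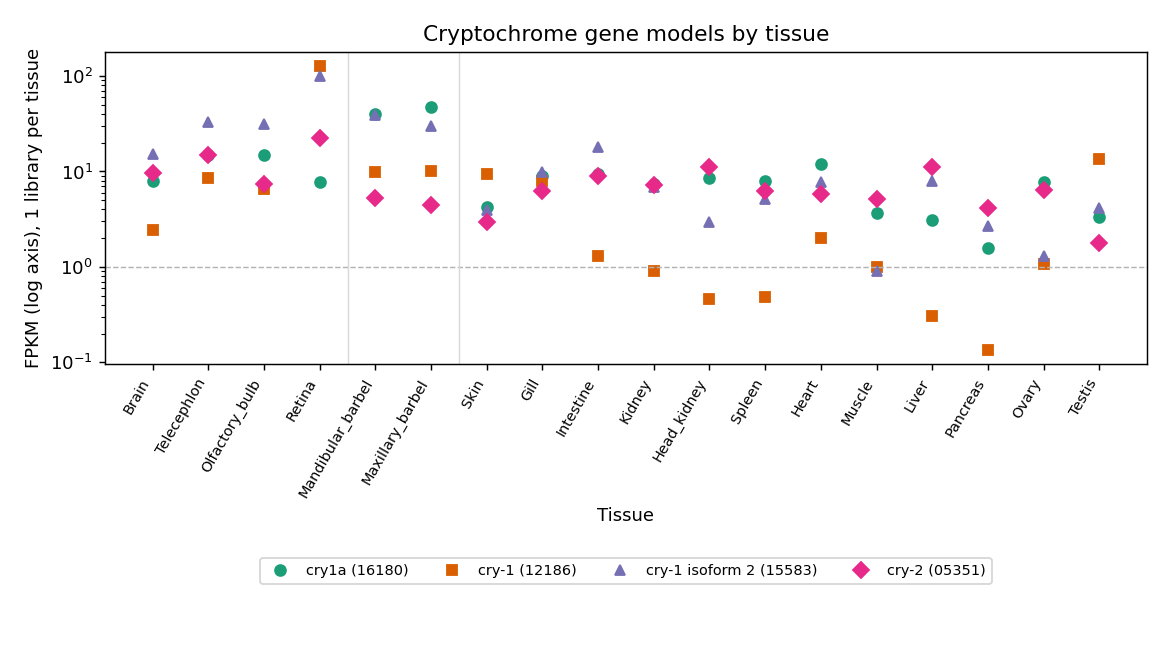
FPKM (log axis) of the 4 cryptochrome gene models in the same 18 libraries, 1 point per model and library, with neural tissues at the left, then the barbels; the dashed line marks an FPKM of 1. Cryptochrome-1 and cryptochrome-1 isoform 2 reach 127 and 101 in Retina, and cryptochrome 1a reaches 47.5 and 39.9 in the barbels.

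The balance of the families also moved with the tissue. Summed period FPKM exceeded summed cryptochrome FPKM in 9 libraries, with 199 of period and 93.9 of cryptochrome in Mandibular_barbel and 182 and 91.7 in Maxillary_barbel. In the other 9, cryptochrome was higher: Retina had 56.3 FPKM of period and 258 of cryptochrome, and Ovary 0.758 and 16.6. The median log2(FPKM + 1) of the 8 genes was 4.39 in Retina, 4.33 in Mandibular_barbel, 4.20 in Maxillary_barbel and 3.98 in Telecephlon, where the medians of all tested genes were 2.23, 2.19, 2.05 and 2.48. It was lowest in Ovary, at 0.74, where the median of all genes, 0.25, was also low, and 4 of the 8 reached an FPKM of 1 there.

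Over all 18 libraries, all 8 genes passed an FPKM of 1 in some library, and 2 of them, cryptochrome-2 and cryptochrome 1a, did so in every library, beside 10.2% of all genes in the table. None had a tau, an index that runs from 0 for even to 1 for a single tissue, of 0.85 or more, beside 20.9% of tested genes. The values ran from 0.37 in cryptochrome-2 to 0.72 in cryptochrome-1, with a median of 0.53 beside 0.61 over all 22197 tested genes. The highest level was in Retina for 3 of the 8 (8.48% of tested genes), in a barbel for 3 (8.85%) and in a neural library for 4 (34.3%). The lowest was in Ovary, Pancreas or Muscle for 7 (67.0% of tested genes), and for 3 with libraries brought to the same upper quartile (44.2%).

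Between the 4 neural libraries (Brain, Telecephlon, Olfactory_bulb and Retina) and the 14 others, 7 of the 8 genes were 2-fold or more higher in the neural ones, beside 34.2% of tested genes, and none was 2-fold lower, beside 5.11%. The difference was 2.30 for cryptochrome-1 isoform 2, 1.99 for per3, 1.97 for cryptochrome-1, 1.41 for C0J45_18054, 1.14 for C0J45_17793, 1.12 for per1 and 1.003 for cryptochrome-2, which lay at the threshold. Cryptochrome 1a was the exception at 0.41. The median over the 8 was 1.27, and over all tested genes 0.57. For each of the 8 the neural and other values overlapped; per3 had 23.7 to 74.1 FPKM in neural libraries and 0.241 to 159 in the others. The count depended on the scaling: with libraries brought to the same upper quartile, which moved the median of all genes to -0.10, 2 of 8 passed beside 19.3% of genes. The difference of cryptochrome-2 then turned to -0.08 and that of cryptochrome 1a to -0.655. With the same summed FPKM, which moved that median to 0.98, 7 of 8 passed beside 49.2%, and with a pseudocount of 0.1, 7 of 8 beside 49.7%. Without the Retina library 4 of 8 passed beside 34.5%, and within the 6 libraries of middle depth 3 of 8 beside 23.2%.

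Between the 2 barbels and the 16 other libraries, 5 of the 8 genes were 2-fold or more higher in the barbels, beside 21.2% of tested genes, and none was 2-fold lower, beside 6.74%. The difference was 3.55 for per3, 3.24 for C0J45_18054, 2.51 for cryptochrome 1a, 1.94 for cryptochrome-1 isoform 2 and 1.40 for cryptochrome-1. It was -0.11 for C0J45_17793, -0.22 for per1 and -0.47 for cryptochrome-2. The median over the 8 was 1.67, and over all tested genes 0.20. In per3, C0J45_18054 and cryptochrome 1a both barbels stood above each of the 16 others, beside 5.83% of tested genes; with the same upper quartile this held for 2, beside 3.99%, since cryptochrome 1a was then highest in Ovary. Against Skin alone, these 3 genes differed by 3.42, 3.47 and 3.09, whereas cryptochrome-1 differed by 0.07. The Skin library also held muscle ckma and had less krt4 and krt92 than Maxillary_barbel, so it may differ from the barbels in cell content. The median log2(FPKM + 1) of all tested genes was also higher in Mandibular_barbel (2.19) and Maxillary_barbel (2.05) than in Skin (1.16), the library of lowest depth. With the same upper quartile 4 of the 8 passed beside 12.6% of genes, and cryptochrome-2, at -1.27, was 2-fold lower, also beside 12.6%. With the same summed FPKM 5 passed beside 21.9%, and with a pseudocount of 0.1, 5 beside 33.6%.

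Depth range moved with both comparisons, since the barbels and 3 of the neural libraries were of middle depth. In the 6 libraries of middle depth, 6 of the 8 genes were 2-fold or more higher than in the 12 others, beside 31.3% of tested genes, and none 2-fold lower, beside 1.75%. With the barbels left out, 5 of 8 were higher in the remaining libraries of middle depth, beside 33.8%. In these counts depth and tissue cannot be told apart. Within the middle depth range, the barbels exceeded the other 4 libraries by 2.15 for C0J45_18054, 1.85 for cryptochrome 1a and 1.83 for per3. Those 4 were Retina, Telecephlon, Olfactory_bulb and Intestine. All 6 libraries had 20200000 to 22600000 estimated fragments, so the depth range was shared in this comparison. Cryptochrome-1 isoform 2 had -0.13 and cryptochrome-1 had -0.14 there, and Retina was the highest library of both genes. Cryptochrome-1 had 10.03 and 9.88 FPKM in the barbels, above Telecephlon (8.57), Olfactory_bulb (6.57) and Intestine (1.3). Cryptochrome-1 isoform 2 had 38.8 and 29.7 FPKM in the barbels, against 32.7, 31.3 and 18.1 in the same libraries. Of the 8 genes, 3 passed, beside 13.1% of genes. In the same libraries 2 of 8 were 2-fold lower in the barbels, beside 21.6% of genes: C0J45_17793 at -1.28 and cryptochrome-2 at -1.18. For C0J45_17793 this rested on Mandibular_barbel, with 0.848 FPKM. Maxillary_barbel, with 6.90 FPKM, lay within the 5.30 to 11.7 FPKM of the other 4 libraries. The liver markers hpx and apoa1 were at 0 in both barbels, and the muscle marker ckma was at 0.556 FPKM in Mandibular_barbel and 0.248 in Maxillary_barbel. Of 3 intestinal markers, fabp2 was at 101 FPKM in Mandibular_barbel and 86.7 in Maxillary_barbel, vil1 at 4.84 and 2.64, and guca2b at 0 and 0.0880.

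**Figure D3:**
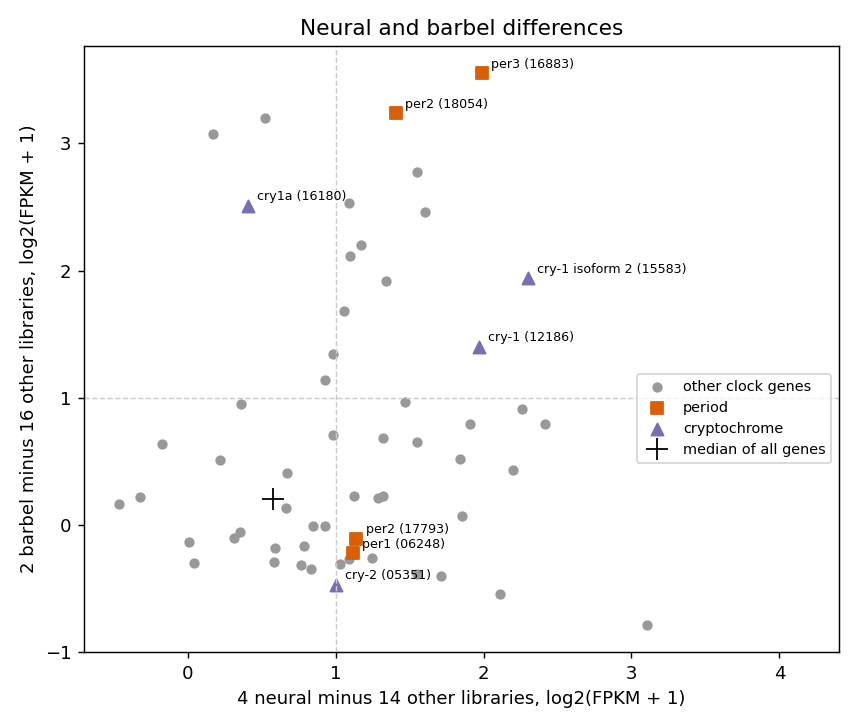
Each point is 1 gene, placed by its difference between the 4 neural and the 14 other libraries (x axis) and between the 2 barbel and the 16 other libraries (y axis), both on the log2(FPKM + 1) scale; dashed lines mark 2-fold and the cross the median of all tested genes. The per3 point (1.99, 3.55) and per2 C0J45_18054 (1.41, 3.24) are high on both axes, and per1, per2 C0J45_17793 and cryptochrome-2 are below 0 on the barbel axis.

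The median log2(FPKM + 1) of all tested genes differed between libraries, from 0.24 in Muscle to 2.63 in Olfactory_bulb. This shift was not removed from the correlations below, and no values of other gene pairs are set beside them. Over the 18 libraries, which share 3 depth ranges, the 28 pairs of members had Pearson correlations of log2(FPKM + 1) from 0.0463 to 0.873, with a median of 0.44. The highest was between per3 and C0J45_18054, at 0.873, and it was 0.796 without the barbels. Cryptochrome 1a and C0J45_18054 had 0.837, and 0.66 without the barbels. Cryptochrome-1 isoform 2 and per3 had 0.828, and 0.801 without the barbels. The 2 models named per2 had 0.188 with each other, and the lowest value was between cryptochrome 1a and C0J45_17793. The 5 highest pairs were all among per3, C0J45_18054, cryptochrome 1a and cryptochrome-1 isoform 2, while per1, C0J45_17793 and cryptochrome-2 had 0.587 or less with every other member. Without the barbels this split did not hold: per1 had 0.76 with per3 and 0.7 with C0J45_18054. With cryptochrome-1 isoform 2, C0J45_17793 then had 0.687 and cryptochrome-2 had 0.668, whereas cryptochrome 1a and per3 had 0.588.

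**Figure D4:**
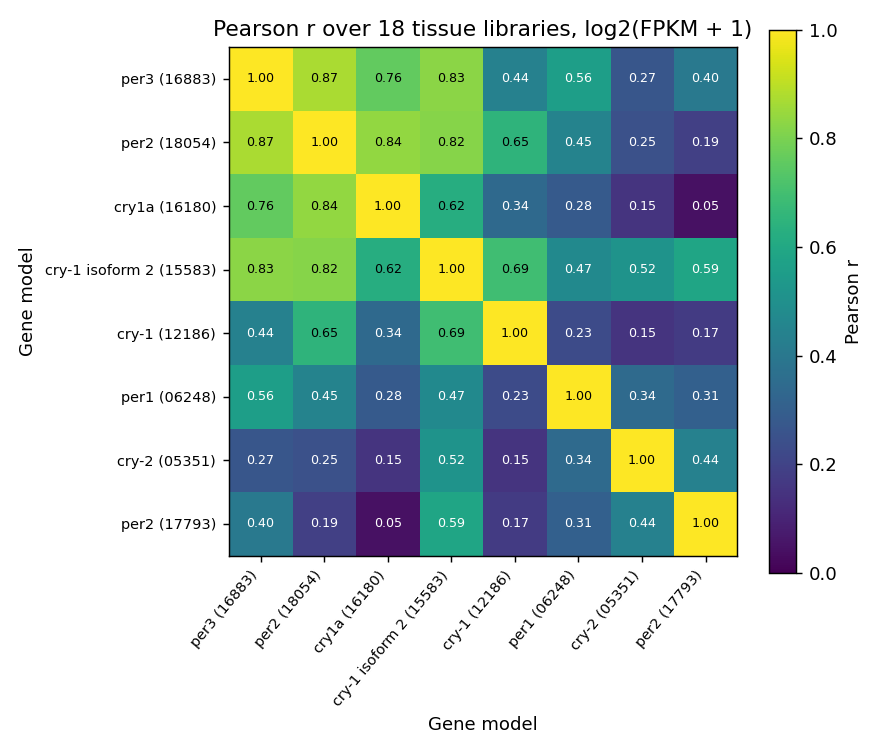
Pearson correlation of log2(FPKM + 1) over 18 libraries for each pair of the 8 gene models, as a grid with the value in each cell. The pair per3 and per2 C0J45_18054 has the highest value, 0.873, and the 2 per2 models have 0.188.

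Of the 17098 named gene models with an FPKM of 5 or more in some library, those most like per3 over the 18 libraries were both models of A-kinase anchor protein 9, a centrosomal scaffold (0.949 and 0.938), and the fatty-acid activating enzyme acsl3b (0.949). Those most like C0J45_18054 were GPR180 (0.934), histone deacetylase 4 (0.927) and the RING finger protein LONRF1 (0.926). LONRF1 was also among those most like cryptochrome 1a (0.901), after the dehydrogenase DHRS12 (0.921). For cryptochrome-1 isoform 2 they were the kinase yes (0.926), the clock activator model C0J45_19838 (0.923) and tecpr1 (0.922). For C0J45_17793 they were all highest in Liver: thromboxane-A synthase (0.843), glutamate dehydrogenase 1b (0.837) and iodotyrosine deiodinase 1 (0.816). For cryptochrome-1 follistatin-A had 0.861, for per1 a PAMR1-like protein had 0.867, and for cryptochrome-2 the purine salvage enzyme HPRT had 0.832.

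The other genes of the clock pathway were taken from a list of 32 symbols, of which 25 matched 54 gene models, 49 with an FPKM of 1 or more in some library. Of these 49, 26 were 2-fold or more higher in the neural libraries and none 2-fold lower, with a median of 1.06, beside the same 34.2% and 0.57 over all genes. In the barbels 11 of 49 were higher and none lower, beside 21.2%, with a median of 0.23 beside 0.20. With the same upper quartile 10 of 49 passed in the neural libraries beside 19.3% of all genes, and with a pseudocount of 0.1, 40 beside 49.7%.

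Of the activators, which drive period and cryptochrome transcription, 1 of 5 models was past 2-fold in the neural libraries and 1 in the barbels. Over all tested genes, 34.2% passed in the neural libraries and 21.2% in the barbels. The clock model C0J45_19838 was at most 5.22 FPKM (Retina). The bmal1 model C0J45_05422 had 38.1 FPKM in Retina and 13.3 in Ovary, the next library, C0J45_08831 had 17.8 in Retina, and bmal2 had 22.7 in Intestine and 8.99 in Retina. Over the 18 libraries, cryptochrome-1 isoform 2 had correlations of 0.923 with clock C0J45_19838 and 0.893 with bmal1 C0J45_08831. C0J45_18054 had 0.894 and per3 0.783 with the same clock model, whereas C0J45_17793 had 0.437. With the other clock model, C0J45_22902, cryptochrome-1 isoform 2 had 0.457, C0J45_18054 0.546 and per3 0.641, and with bmal1 C0J45_05422 they had 0.601, 0.599 and 0.39. Shifts shared by whole libraries were not removed from these correlations either.

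In the stabilising loop, the nuclear receptors of the REV-ERB (nr1d) group repress and ROR proteins activate bmal1. Of these receptors, 7 of 11 models were higher in the neural libraries, beside 34.2% of tested genes, and 1 in the barbels, beside 21.2%. That 1 was rorc a (C0J45_15732), with 26.7 FPKM in Maxillary_barbel and 25.9 in Mandibular_barbel, a barbel difference of 3.20. By contrast rorc b (C0J45_17701) had 23.3 FPKM in Retina, and rorb 20.4 in Retina and 0.284 in Telecephlon, the next library. The bZIP factors were the output activators dbp, tef and hlf and the repressor nfil3. Of their models, 10 of 12 were higher in the neural libraries (34.2% of tested genes) and 6 of 12 in the barbels (21.2%). The barbel differences were 2.77 for tef b, 2.12 for tef C0J45_07079 and 2.46 and 2.20 for the 2 hlf models. They were 2.53 and 1.68 for nfil3 C0J45_13149 and C0J45_13150. The other nfil3 models tested did not pass, with 0.68 for C0J45_10954, 0.41 for C0J45_09093 and -0.30 for C0J45_10955. The 3 dbp models had 0.22 or less. Of the 2 bHLH repressors, bhlhe40 had 73.8 FPKM in Mandibular_barbel and 59.0 in Maxillary_barbel, whereas bhlhe41 was highest in Olfactory_bulb at 23.1.

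Among the kinase genes that act on clock proteins, gsk3b passed in the neural libraries, by 2.20, beside 34.2% of tested genes. The casein kinase I delta-B models C0J45_07254 and C0J45_12800 did not pass, at 0.98 and 0.36. Neither timeless nor tipin passed, at -0.32 and -0.47. Of 12 light and melatonin genes tested, 3 were higher in the neural libraries, beside 34.2% of tested genes. They were the melatonin enzymes aanat C0J45_00240 (446 FPKM in Retina and 3.91 in Telecephlon, the next library) and asmt C0J45_03370 (164 FPKM in Retina), and the photopigment melanopsin-like C0J45_05883 (40.8 FPKM in Retina). These 3 rest on Retina: in Brain, Telecephlon and Olfactory_bulb asmt C0J45_03370 was at most 0.0171 FPKM, the melanopsin-like model at most 0.556 and aanat C0J45_00240 at most 3.91. Of the 12, 1 was higher in the barbels, beside 21.2% of tested genes: a model with class 2 photolyase domains and no protein name (C0J45_05648). It had 80.4 FPKM in Mandibular_barbel and 88.4 in Maxillary_barbel, and at most 18.8 in the 16 others, a difference of 3.08. Photolyases repair DNA damaged by ultraviolet light with the energy of visible light.

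**Figure D5:**
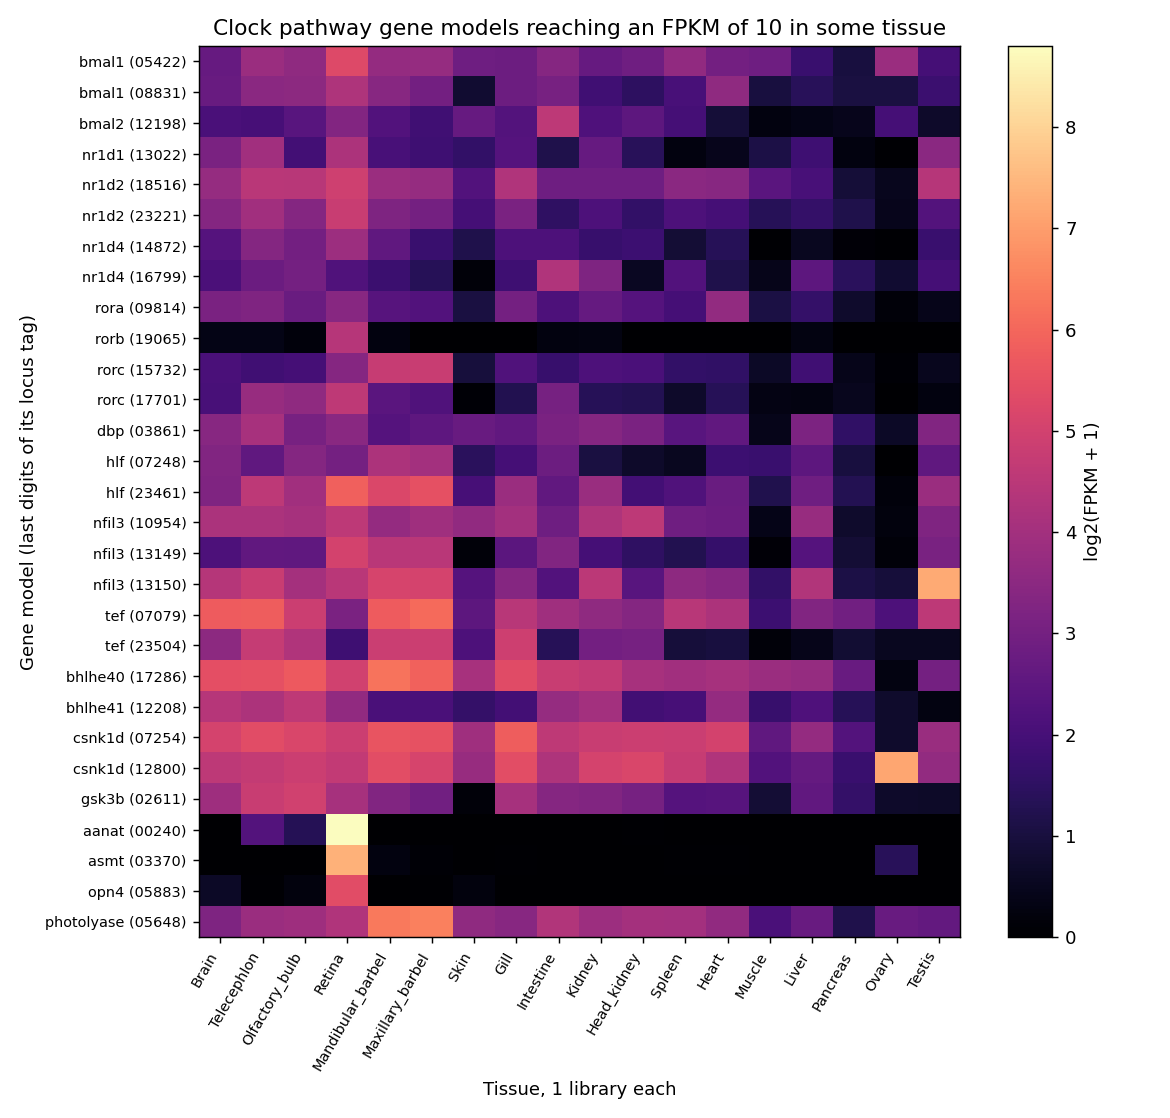
Level, log2(FPKM + 1), of other clock-pathway gene models that reach 10 FPKM in some tissue (rows, with the end of the locus tag) in each of the 18 libraries (columns), from dark for 0 to light for the highest. The Retina column is light for aanat (446 FPKM) and asmt (164 FPKM), and the barbel columns for the photolyase model (80.4 and 88.4 FPKM) and bhlhe40 (73.8 and 59.0 FPKM).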

How the data were processed

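The study measured poly(A) RNA in 18 libraries, 1 per tissue, grouped by the tissue in each label. The authors deposited FPKM per gene model, with StringTie 1.3.4d named in the submitters' processing notes. Neither aligner nor build is given in the sources used here. A deposited annotation gave protein names, coordinates, domains and coding exons. The members, the list of other clock genes and the marker list were chosen with earlier results of these data known, and the barbel and depth comparisons, and the other scalings of the lowest library, were added after the data had been seen. Since FPKM are not read counts and no tissue was replicated, neither a count model nor any test was applied. A group difference is the mean log2(FPKM + 1) of one group of libraries minus that of the other, called at 1 (2-fold) among the 22197 genes that reached an FPKM of 1, the level taken as detected, in some library. Depth was estimated from the most frequent low value of FPKM times coding length, read as 1 fragment, so fragment numbers are approximate. By rule, any member and any gene of the clock list could be named; for each member the 3 most alike named genes with an FPKM of at least 5 were taken, by Pearson correlation. Near-identical paralogs can share reads, so levels of single copies are uncertain. Sequences were not used here. Values of some listed genes are not reported here. The difference step was checked on simulated data with equal base levels over the libraries, so that check does not cover shifts between whole libraries. Computation used Python 3.11.15, numpy 2.4.6, pandas 2.3.3, scipy 1.17.1 and matplotlib 3.10.9. Alternatives were the pseudocount (0.1), the scaling, the detection level (0.5 and 2), medians, no filter on low values, Spearman correlation, leaving out Retina, and middle-depth libraries only.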

Additional observations from a re-analysis of the deposited data

How the results depend on the processing

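No paired analysis was possible because each tissue has 1 library, and for the same reason no replicate could be left out and no spread is known. Of the 8 genes, 7 were 2-fold or more higher in the neural libraries; this became 2 with the same upper quartile, 4 without the Retina library and 3 within the middle depth range. With a pseudocount of 0.1, the same summed FPKM, medians or no filter it lay between 5 and 7. For medians and for no filter, the share of all genes was not computed. With the same upper quartile the neural difference of cryptochrome-2 (C0J45_05351) reversed to -0.083, that of cryptochrome 1a (C0J45_16180), 0.409 as deposited, turned to -0.655, and that of per3 (C0J45_16883) was 0.993. For the other clock genes the count of 26 became 40 with a pseudocount of 0.1 and 10 with the same upper quartile. Genes detected in every library were 2 at an FPKM of 1, beside 10.2% of all genes. At an FPKM of 2 they were 0, and the share of all genes at that level was not computed. The barbel count of 5 became 3 within the middle depth range. Genes 2-fold lower in the barbels were 0 as deposited, 1 with the same upper quartile and 2 within the middle depth range. The barbel difference of C0J45_17793, -0.11, was 0.093 with a pseudocount of 0.1. Genes lowest in Ovary, Pancreas or Muscle were 7 as deposited and 3 with the same upper quartile. The cause of these changes was not tested. Of the 24 most alike genes by Pearson correlation, 1 was also among the top 3 by Spearman correlation. With the same upper quartile, the highest library became Pancreas for cryptochrome-2 and Ovary for cryptochrome 1a.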

Other observations

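Of the 49 other clock-pathway models tested, 31 peaked in a neural library, beside 34.3% of all tested genes, and 5 in a barbel, beside 8.85%. The remaining 13 peaked outside the neural and barbel libraries. Of the 31 neural peaks, 23 were in Retina, the highest library of 8.48% of all tested genes. The light and melatonin genes of the list gave 10 of the 31 and 7 of the 23. These counts therefore depend on which genes were listed. The repressor gene nfil3 C0J45_13150 had 148 FPKM in Testis and 33.7 in Mandibular_barbel, the next library. Casein kinase I delta-B, C0J45_12800, one of the kinases that phosphorylate PER proteins, had 142 FPKM in Ovary and 41.6 in Mandibular_barbel. The other model of this kinase, C0J45_07254, peaked in Gill at 53.9 FPKM. The nuclear receptor gene nr1d4 C0J45_16799 was highest in Intestine, at 18.7 FPKM, as was bmal2, whereas the other nr1d4 model, C0J45_14872, was highest in Retina at 13.5. These are values of single libraries and were not tested.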
